A study of Mus musculus with 13 samples.

Results

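The genes described here make prostaglandin E2 and prostacyclin or receive prostaglandin E2. The list holds 10 mouse genes: the cyclooxygenases Ptgs1 and Ptgs2, the prostaglandin E synthases Ptges, Ptges2 and Ptges3, the prostacyclin synthase Ptgis, and the prostaglandin E2 receptors Ptger1, Ptger2, Ptger3 and Ptger4. Every probe annotated with one of these symbols was taken. That gave 12 of the 25697 probes on the array, for 8 of the 10 genes and of 16593 genes named on the array; Ptgs1 and Ptger1 were not analysed here. A probe was tested when its detection p-value, the array software's measure of signal over negative controls, was under 0.01 on at least 2 arrays. This left 16226 probes in all, among them 8 of the 12 probes listed, covering 7 genes.

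Total RNA from caudal vertebral bone, the bone of the tail, was measured on 13 single-colour Illumina bead arrays, 1 per sample. The labels give 4 groups. WT bone had 4 arrays, bone of Prkaca+/- mice, which carry 1 copy of the gene for a catalytic subunit of protein kinase A, had 4, bone lesions of Prkar1a+/- mice, which carry 1 copy of the gene for a regulatory subunit, had 3, and bone lesions of double heterozygotes (Prkar1a+/-Prkaca+/-) had 2. All mice were 9 months old and of a C57BL/6x129Sv/B6 hybrid background. The labels do not say that replicates of a group came from separate mice, so p-values measure the spread between these samples, which may be technical. All lesion samples carried Prkar1a+/- and no sample without a lesion did, so an effect of the lesion and one of the Prkar1a genotype cannot be told apart. The samples were whole tissue, in which fewer cells of a type and less RNA per cell cannot be told apart.

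Cyclooxygenases turn arachidonic acid, freed from membranes by phospholipases, into the short-lived prostaglandin H2. Terminal synthases turn that product into prostaglandin E2, prostacyclin, prostaglandin D2 or thromboxane, and each product acts on its own receptors at the cell surface. In bone, prostaglandin E2 is made by osteoblast lineage cells, is known to promote both bone formation and osteoclast formation, and acts largely through the receptors encoded by Ptger2 and Ptger4, which raise cyclic AMP and so activate protein kinase A. The receptor encoded by Ptger3 mostly lowers cyclic AMP. Ptgs2 is an immediate early gene that cytokines and cyclic AMP induce.

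Short stretches of 3 member promoters are shown because they belong to the inducible enzymes of the pathway, Ptgs2 and Ptges, and to Ptges2, which moved the other way in the lesions. The windows are RefSeq sequences of build GRCm38.p6, each 30 bases long, 5′ to 3′ on the gene's strand, with the matched motif in capitals.
Ptgs2 at chr1:150100032-150100061, plus strand: gagtcaccactaCGTCAcgtggagtccgct
Ptgs2 at chr1:150099951-150099980, plus strand: cgctgcggttcTTGCGCAActcactgaagc
Ptges at chr2:30903322-30903351, minus strand: tGGGCGGggagtGGGCGGgggtgaccgcct
Ptges2 at chr2:32395801-32395830, plus strand: ccatttccgcgaCACGTGgtttccaaggcc
In the first window the capitals mark the reverse complement of TGACG, a part of the cyclic AMP response element, and begin 14 bases into the annotated transcript. This match overlaps an E-box, CACGTG. In the second they mark TTGCGCAA, a palindrome bound by C/EBP factors, which starts at position -69 from the annotated start. In the Ptges window they mark GC boxes, GGGCGG, and in the Ptges2 window an E-box at position -77. Both strands of 32851 RefSeq promoter windows, each 300 bases long and starting 250 bases before the annotated start, were searched for the same letters. TGACG was in 20.8% of them, CACGTG in 7.15%, GGGCGG in 35.7% and TTGCGCAA in 0.183%. Of the 8 members with such a window, 2 held TGACG (Ptgs2 and Ptges3) and 0 held the full element TGACGTCA, which was in 1.79% of all windows.

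Intensities were printed for 15573 to 16885 probes per array, and 13555 to 14831 probes per array were detected. Of the osteoblast markers, all 7 tested (such as Bglap, Ibsp and Col1a1) were detected on every array, while Runx2 was not tested. Among osteocyte markers, Phex and Mepe were likewise detected on every array. Dmp1 was detected on 0 of 8 non-lesion arrays, and Sost was not tested. All 6 skeletal muscle markers were detected on every non-lesion array too. Detection of bone markers therefore goes with the labelled tissue but does not show that the samples were bone alone. Prkar1a itself stood at 37.8% of the non-lesion level in the lesions (adjusted p = 5.37e-07, limma), and the Prkaca probes at 54.9% and 50.6% of the WT level in Prkaca+/- bone, each with an adjusted p of 0.999981. The Prkaca probes were also lower in Prkar1a+/- lesions, at 47.4% and 46.4% of the WT level (limma adjusted p = 0.00374 and 0.00159). That group is not labelled as lacking a copy, so the level against WT does not check the genotype labels of lesions. Between the lesion groups, the probes stood in double heterozygotes at 52.6% and 56.0% of the Prkar1a+/- lesion level (limma adjusted p = 0.999941 each). On each probe both double heterozygote lesions lay below every Prkar1a+/- lesion, the direction that the labels give. Markers of several cell types also differed in lesions, beside 25.1% of all tested probes called higher and 26.2% lower. All 7 osteoblast, all 6 osteoclast and all 3 mast cell markers tested were higher in lesions, as were 4 of 5 fibroblast, 2 of 4 macrophage, 3 of 5 granulocyte, 3 of 5 T and NK cell and 2 of 3 osteocyte markers. Of the endothelial markers 1 of 5 was higher, and 0 of 4 platelet markers passed the test. All 4 adipocyte, both red cell and 4 of 6 skeletal muscle markers were lower. Summed osteoblast marker intensity was 24223 to 41097 on the non-lesion arrays and 114409 to 154646 on the lesion arrays, summed osteoclast marker intensity 5669 to 16271 and 66437 to 81722, and summed macrophage marker intensity 1236 to 4939 and 2341 to 7359. Summed skeletal muscle marker intensity was 75828 to 98147 on the non-lesion arrays and 23029 to 81286 on the lesion arrays, with the lowest value in Prkar1a+/- lesion replicate 2. Apart from skeletal muscle, entered below as a covariate, the part of these cell types in the results that follow was not tested.

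The first comparison asked which members of the pathway differed between lesions and bone without a lesion. Among the 8 tested probes, Ptgs2, Ptgis, Ptger2 and Ptger3 were higher in lesions by 1.26- to 1.81-fold, Ptges2 was lower at 64.6% of the non-lesion level, and both Ptges probes and Ptges3 did not pass the test. Thus 4 rose and 1 fell, where 25.1% of all tested probes were called higher, 26.2% lower and 51.2% in either direction at an adjusted p under 0.05 (limma over 16226 probes). The share of member probes called was therefore close to that of the array as a whole. Ptgs2 and Ptger2 were each detected on 5 of 5 lesion arrays and 1 of 8 others. Ptges probe ILMN_2616028 was detected on 3 of 5 and 0 of 8. These probes passed the detection filter only through lesion arrays, so the count of rises is not free of that selection. For 0 of the 8 probes did all 5 lesion arrays lie on one side of all 8 others, against 27.6% of all tested probes. In every limma value below, differences are lesion minus reference on the log2 scale with the standard error (SE). Exact two-sided permutation p-values of single probes compare the 5 lesion with the 8 non-lesion arrays. In all 12 such p-values were computed, 1 for each member probe, and the smallest that this design allows is 0.00155. Those of tested probes are given unadjusted, for Ptges3 (exact permutation p = 0.834) and Ptges probe ILMN_2616028 (exact permutation p = 0.0521) here and for the others below.

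**Figure D1:**
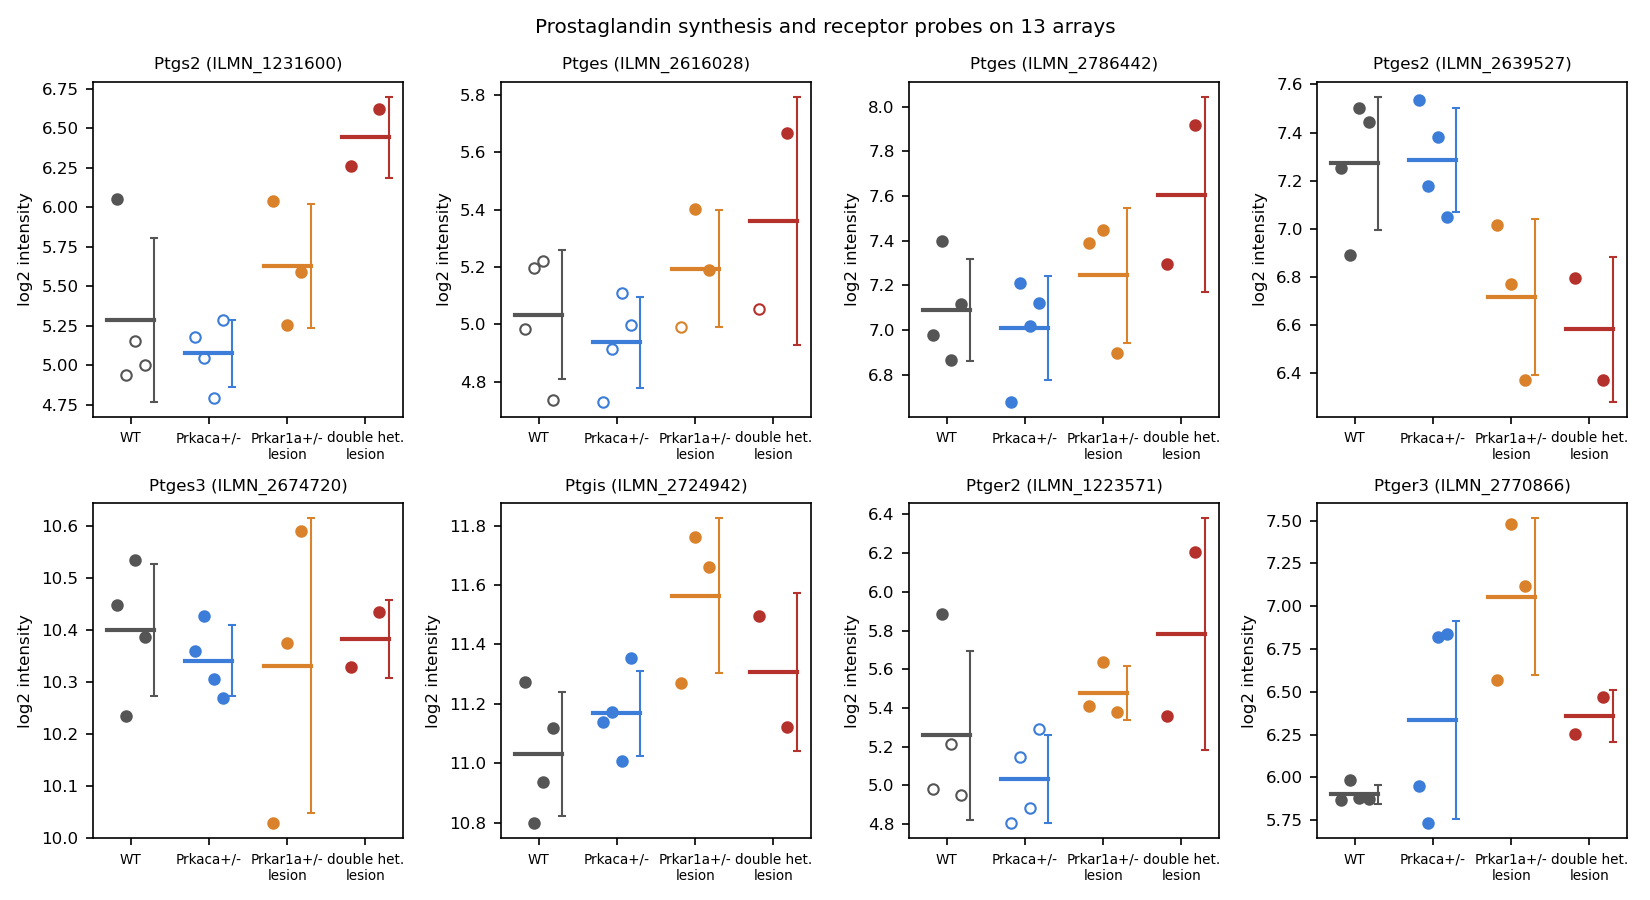
Normalised log2 intensity (vertical axis, its own range in each panel) of the 8 tested probes on each of the 13 arrays, by group; points are arrays, filled where the detection p was under 0.01 and open where it was not, horizontal lines are group means and bars are 1 SD. The double heterozygote lesions are the 2 highest arrays for Ptgs2, the Prkar1a+/- lesions lead for Ptger3, and lesion and non-lesion arrays overlap in every panel.

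Ptgs2, the inducible cyclooxygenase, rose in the lesions. Probe ILMN_1231600 read 6.05, 4.94, 5.16 and 5.01 on the log2 scale on the WT arrays and 5.18, 5.05, 4.80 and 5.29 on the Prkaca+/- arrays. It read 6.04, 5.26 and 5.59 in Prkar1a+/- lesions and 6.26 and 6.62 in double heterozygote lesions. Both double heterozygote lesions lay above every other array, while the Prkar1a+/- lesions overlapped the controls because WT replicate 1 was as high as the highest of them. The probe was dim: it was detected on 5 of 5 lesion arrays and 1 of 8 non-lesion arrays. Its deposited intensity was 102 to 164 on the lesion arrays and 95.1 to 123 on 5 non-lesion arrays, and empty on the other 3, while the background level estimated per array was 66.1 to 91.9. The lesion difference was 0.85 ± 0.20 (SE), or 1.81-fold with a 95% interval from 1.34 to 2.44, at an adjusted p of 0.00320 by limma; the exact permutation p was 0.0117. With 7 of the 8 reference values not detected, 3 of them empty and filled, this fold is set against signal near background. Its size depends on the background correction: with none, and the same filling, the difference was 0.40. The second Ptgs2 probe, ILMN_2717913, was detected on 0 of 13 arrays and gave no value for the comparison.

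The group means for Ptgs2 were lowest in bone without a lesion, where the order of the 2 groups has no meaning because only WT replicate 1 was detected: Prkaca+/- bone (5.08 ± 0.21, SD, n = 4), WT bone (5.29 ± 0.52, n = 4). They were followed by Prkar1a+/- lesion (5.63 ± 0.40, n = 3) and double heterozygote lesion (6.44 ± 0.26, n = 2). Neither WT and Prkar1a+/- lesion nor the 2 lesion groups differed at the adjusted threshold. Prkar1a+/- lesion against WT gave 0.34 ± 0.26 (limma adjusted p = 0.325), which became 0.60 with an adjusted p of 0.0414 without WT replicate 1. Double heterozygote lesion against Prkaca+/- gave 1.37 ± 0.30 (limma adjusted p = 0.00655). Since 0 of the 4 Prkaca+/- arrays detected the probe, that rise is stated as at least 2.18-fold, the double heterozygote mean over the higher of the probe's own signal and the lowest signal well above background on each Prkaca+/- array. It missed the threshold without double heterozygote lesion replicate 2 (adjusted p = 0.0650). The direct test of the difference between the lesion effects gave 1.02 ± 0.40, with an unadjusted p of 0.0234 and a limma adjusted p of 0.999955, so a larger Ptgs2 rise in double heterozygotes was not shown.

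Prostaglandin E synthases act on the product of the cyclooxygenases. Ptges encodes the inducible membrane-bound enzyme that is often co-induced with Ptgs2. Its probe ILMN_2786442, detected on all 13 arrays, read 6.98, 7.40, 6.87 and 7.11 in WT bone, 6.68, 7.21, 7.02 and 7.12 in Prkaca+/- bone, 7.39, 7.45 and 6.90 in Prkar1a+/- lesions and 7.30 and 7.92 in double heterozygote lesions. The highest value was in double heterozygote lesion replicate 2 and the rest of the lesion arrays lay within or just above the control range. The lesion difference was 0.38 ± 0.15 and missed the threshold (limma adjusted p = 0.0563, exact permutation p = 0.0490). It passed when WT replicate 2, the third Prkar1a+/- lesion or the first double heterozygote lesion was left out, with differences of 0.43 to 0.53 and adjusted p-values of 0.0234 to 0.0323. It passed as well with 75th percentile scaling (adjusted p = 0.0346) and over probes detected on all arrays (adjusted p = 0.0490), and missed by most without double heterozygote lesion replicate 2 (0.22, adjusted p = 0.304). The other Ptges probe, ILMN_2616028, was detected in 3 of the 5 lesions and in 0 of the 8 control samples; its difference was 0.29 ± 0.14 (limma adjusted p = 0.0912), which passed the threshold without double heterozygote lesion replicate 1 (0.45, adjusted p = 0.0260).

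Ptges2, a second membrane-associated synthase, was the only member that fell. Probe ILMN_2639527 read 7.25, 6.89, 7.50 and 7.44 in WT bone and 7.54, 7.18, 7.38 and 7.05 in Prkaca+/- bone. It read 7.01, 6.77 and 6.37 in Prkar1a+/- lesions and 6.79 and 6.37 in double heterozygote lesions. All but 1 of the 5 lesion arrays lay below every non-lesion array, and Prkar1a+/- lesion replicate 1 alone overlapped them, above WT replicate 2. The difference was -0.63 ± 0.15 (limma adjusted p = 0.00392; exact permutation p = 0.00233), and it stayed past the threshold with each of the 13 arrays left out in turn, with an adjusted p of at most 0.0302. It was -0.55 ± 0.20 (limma adjusted p = 0.0432) for Prkar1a+/- lesion against WT and -0.70 ± 0.23 (limma adjusted p = 0.0359) for double heterozygote lesion against Prkaca+/-. Leaving out 1 array ended the first of these calls in 7 of 13 fits, with differences from -0.70 to -0.38 and an adjusted p of at most 0.191 (the highest without Prkar1a+/- lesion replicate 3), and the second in 5 of 13 fits, from -0.92 to -0.49 with an adjusted p of at most 0.266 (the highest without double heterozygote lesion replicate 2). The first call also missed the threshold with 75th percentile scaling (adjusted p = 0.0600) or no filter on dim probes (adjusted p = 0.0570). The difference between the lesion effects was -0.15 ± 0.30 (95% interval -0.81 to 0.51).

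Ptges3, which encodes the cytosolic synthase also known as the Hsp90 co-chaperone p23, read 10.03 to 10.59 over the 5 lesion arrays and 10.23 to 10.53 over the 8 non-lesion arrays. The lesion values straddled the control values, and both extremes of the 13 arrays came from Prkar1a+/- lesions. The difference was -0.01 ± 0.11 (limma adjusted p = 0.925), with a 95% interval from -0.25 to 0.22, and its sign changed with the array left out and with the deposited scores.

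Ptgis, the cytochrome P450 enzyme that makes prostacyclin, was higher in lesions by a small margin. Probe ILMN_2724942 read 11.27, 10.80, 10.94 and 11.12 in WT bone, 11.14, 11.17, 11.01 and 11.35 in Prkaca+/- bone, 11.27, 11.76 and 11.66 in Prkar1a+/- lesions and 11.50 and 11.12 in double heterozygote lesions. Prkar1a+/- lesion replicates 2 and 3 and double heterozygote lesion replicate 1 exceeded every control, and the other two lesions lay within the control range. The lesion difference was 0.34 ± 0.13 (limma adjusted p = 0.0402; exact permutation p = 0.0163). It rested on few arrays: the call ended in 8 of 13 fits that left out 1 array (WT replicates 2 and 3, Prkaca+/- replicates 1 to 3, Prkar1a+/- lesion replicates 2 and 3, or double heterozygote lesion replicate 1), and was furthest from the threshold without double heterozygote lesion replicate 1 (0.24, adjusted p = 0.201). It also ended with scaling to the 75th percentile (0.14, adjusted p = 0.322). Prkar1a+/- lesion against WT gave 0.53 ± 0.17 (limma adjusted p = 0.0229), a call that ended in 4 of 13 such fits (WT replicates 2 and 3 and Prkar1a+/- lesion replicates 2 and 3, adjusted p of at most 0.110) and with 75th percentile scaling (adjusted p = 0.0645). Double heterozygote lesion against Prkaca+/- gave 0.14 ± 0.19 (limma adjusted p = 0.614), and the difference between these effects, -0.39 ± 0.25, had an unadjusted p of 0.144.

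Of the receptors, Ptger3 showed the largest difference in a single lesion group. Probe ILMN_2770866, detected on all 13 arrays, read 5.87, 5.98, 5.88 and 5.88 in WT bone, 5.95, 5.73, 6.82 and 6.84 in Prkaca+/- bone, 6.57, 7.48 and 7.12 in Prkar1a+/- lesions and 6.25 and 6.47 in double heterozygote lesions. All 5 lesion arrays lay above all 4 WT arrays, but Prkaca+/- replicates 3 and 4 were higher than 3 of the lesion arrays. The lesion difference was 0.59 ± 0.21 (limma adjusted p = 0.0305; exact permutation p = 0.0311). The call ended without Prkaca+/- replicate 1, Prkar1a+/- lesion replicate 2 or 3, or either double heterozygote lesion, and ranged from 0.48 to 0.71 over all 13 such fits, with an adjusted p of at most 0.105. Prkar1a+/- lesion against WT gave 1.15 ± 0.28, or 2.23-fold (limma adjusted p = 0.00568), which stayed past the threshold with any 1 array left out (adjusted p of at most 0.0359).

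Double heterozygote lesion against Prkaca+/- bone gave 0.02 ± 0.31 for Ptger3 (limma adjusted p = 0.960), where the control group held both the lowest of the 13 arrays, at 5.73, and a pair at 6.82 and 6.84. The difference between the lesion effects was -1.13 ± 0.42, with an unadjusted p of 0.0179 and a limma adjusted p of 0.999955. Ptger3 and Ptgs2 were the 2 member probes whose interaction had an unadjusted p under 0.05, in opposite directions; across the array 385 of 16226 probes did so and 0 passed after adjustment. The second Ptger3 probe, ILMN_2713866, was detected on 0 of 13 arrays.

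Ptger2, one of the receptors that raise cyclic AMP, was dim. Probe ILMN_1223571 was detected on 5 of 5 lesion arrays and 1 of 8 non-lesion arrays, WT replicate 2. It read 4.98, 5.88, 5.22 and 4.95 in WT bone, 4.81, 5.15, 4.88 and 5.29 in Prkaca+/- bone, 5.41, 5.64 and 5.38 in Prkar1a+/- lesions and 5.36 and 6.20 in double heterozygote lesions. Only 1 of the 5 lesion arrays lay above every control array, and WT replicate 2 was the control array that overlapped the rest. The difference over all 13 arrays was 0.48 ± 0.19 (limma adjusted p = 0.0447; exact permutation p = 0.0420), and without WT replicate 2 it was 0.59 with an adjusted p of 0.00702. The call ended in 10 of 13 fits that left out 1 array (WT replicates 1, 3 and 4, Prkaca+/- replicates 1 to 3, every Prkar1a+/- lesion, or double heterozygote lesion replicate 2), most of all without double heterozygote lesion replicate 2 (0.27, adjusted p = 0.281). It also ended with no background correction, an offset of 50, empty intensities at the lowest printed one or no filter on dim probes, with an adjusted p of 0.0501 to 0.0672.

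Neither lesion group alone passed the test for Ptger2, with 0.22 ± 0.25 (limma adjusted p = 0.511) in Prkar1a+/- lesions against WT and 0.75 ± 0.28 (limma adjusted p = 0.0615) in double heterozygote lesions against Prkaca+/- bone. The latter passed without WT replicate 2 (0.75, adjusted p = 0.0266) or double heterozygote lesion replicate 1 (1.17, adjusted p = 0.0424). The second Ptger2 probe, ILMN_2812759, was detected on 1 of 13 arrays, double heterozygote lesion replicate 2. Ptger4, the other receptor that raises cyclic AMP, has a single probe, ILMN_2715903, which was detected on 0 of 13 arrays and read between 4.24 and 4.53 on all of them. These levels are those of background, and no difference in Ptger4 could be measured with this probe.

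**Figure D2:**
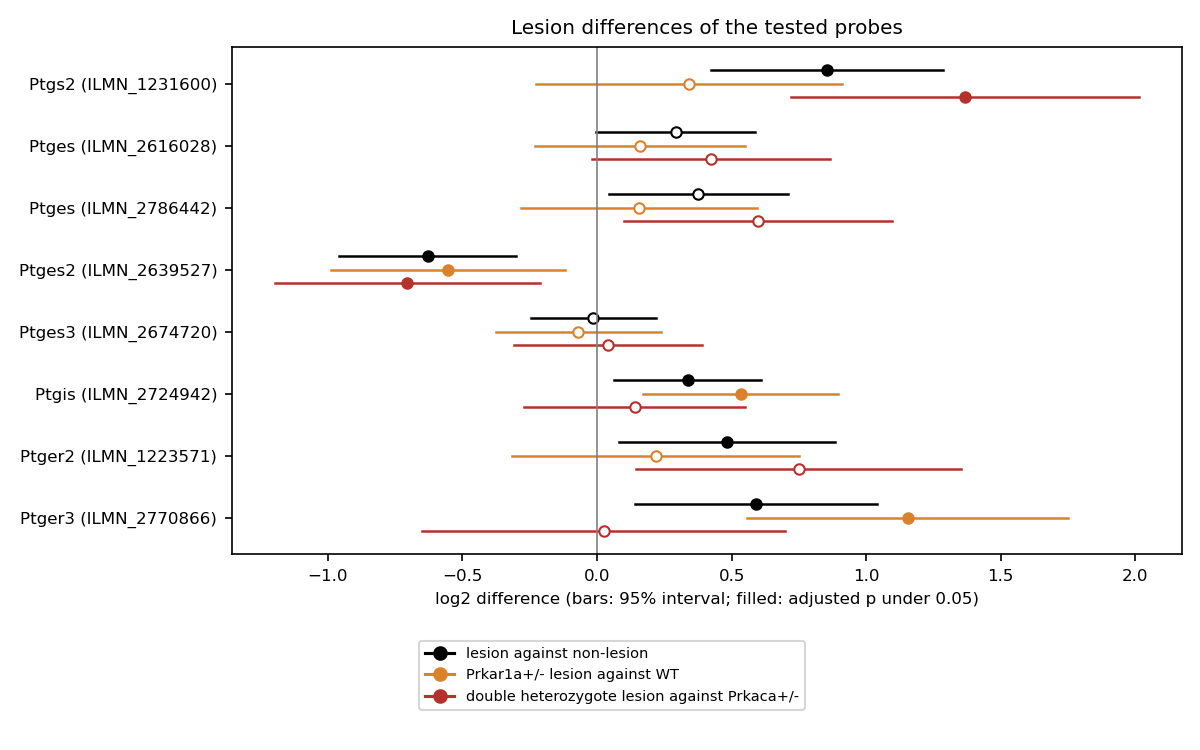
Difference in log2 intensity (horizontal axis) of each tested probe for lesion against non-lesion, Prkar1a+/- lesion against WT and double heterozygote lesion against Prkaca+/-; points are limma estimates, bars 95% intervals, and filled points have an adjusted p under 0.05. Ptges2 lies below 0 in all 3 comparisons, Ptgs2 is filled in 2 and Ptger3 is at 1.15 in one genotype and 0.02 in the other.

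Taken by genotype, 2 member probes rose (Ptgis and Ptger3) and 1 fell (Ptges2) in Prkar1a+/- lesions against WT, where 20.0% of all tested probes were called higher and 19.4% lower (39.3% in either direction). In double heterozygote lesions against Prkaca+/- bone, 1 rose (Ptgs2) and 1 fell (Ptges2), where 14.3% were called higher and 13.9% lower (28.2% in either direction). None of the 8 probes was called in Prkaca+/- against WT bone, in double heterozygote against Prkar1a+/- lesions, or for the difference between the lesion effects, and 0% of all probes were. At an unadjusted p under 0.05 limma gave 263, 551 and 385 probes in these comparisons, of which 0, 1 and 2 were member probes. The 1 was Ptgs2, higher in double heterozygote than in Prkar1a+/- lesions by 0.81 ± 0.31 (unadjusted p = 0.0228, limma adjusted p = 0.999941).

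Members were also set beside the arrays that carried them. Double heterozygote lesion replicate 2 was the highest of the 13 arrays for 4 of the 8 tested probes (Ptgs2, both Ptges probes and Ptger2), and Prkar1a+/- lesion replicate 2 for 2 (Ptgis and Ptger3). Prkar1a+/- lesion replicate 2 also had the lowest skeletal muscle marker level, a mean log2 intensity of 8.84 against 12.36 to 12.96 in bone without a lesion. With that mean as a covariate, the Ptgs2 difference was 1.13 (limma adjusted p = 0.0113) and stayed past the threshold. The calls of the other members ended: Ptges2 stood at -0.52 (adjusted p = 0.109), Ptger3 at 0.16 (adjusted p = 0.692) and Ptgis at 0.15 (adjusted p = 0.561), and Ptger2 also missed the threshold. Over all tested probes the same covariate gave 3297 calls, of which 3269 were among the 8314 made without it and in the same direction.

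**Figure D3:**
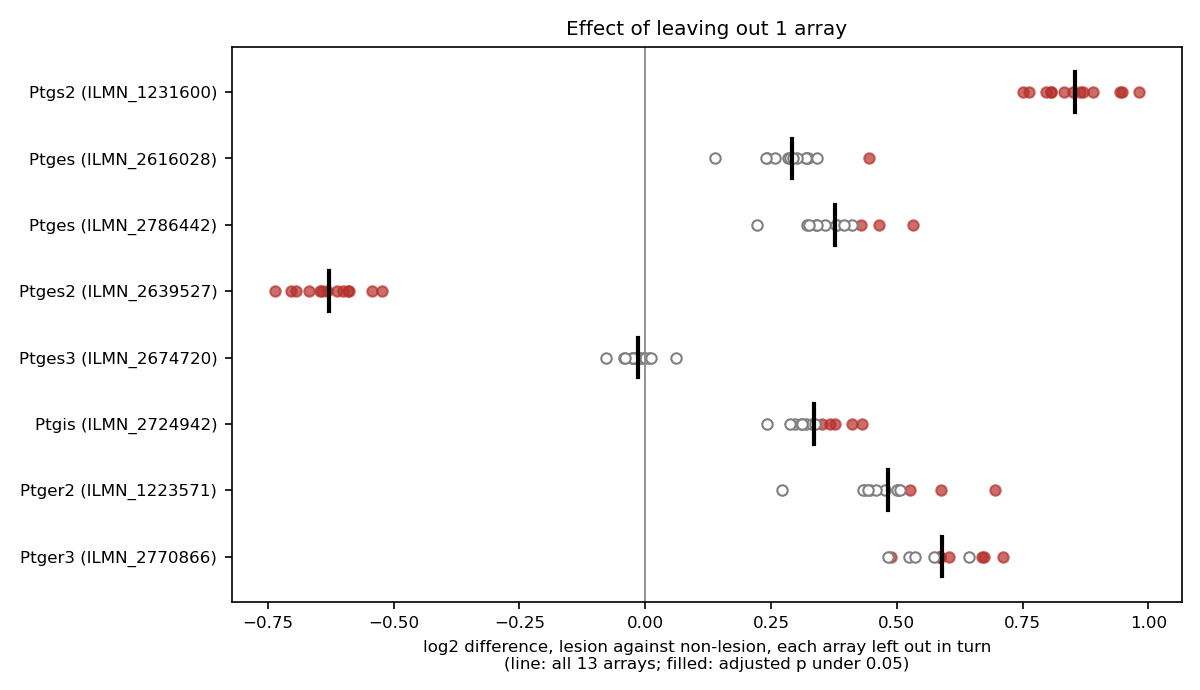
Difference in log2 intensity between lesion and non-lesion bone (horizontal axis) for each tested probe, refitted with each of the 13 arrays left out in turn (points, filled where the adjusted p was under 0.05); the vertical line of each row is the value over all 13 arrays. The Ptgs2 and Ptges2 points are filled throughout, whereas those of Ptgis, Ptger2 and Ptger3 are a mix of filled and open.

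The wider pathway was described from lists of 78 gene symbols, some of them aliases (Fam213b of Prxl2b, Gpr44 of Ptgdr2). A tested probe measured 53 genes. Of these 26 rose and 8 fell in lesions against non-lesion bone, beside 25.1% and 26.2% of all tested probes. Akr1c18, Ptgfr, Ptgfrn, Pla2g2d and Il1rn, all among the rises, passed the detection filter only through lesion arrays. The count of rises is therefore not free of that selection. Each gene is given by its brightest tested probe; of 11 genes with several tested probes, 6 had probes that differed in their call (Cbr3, Lta4h, Tbxa2r, Tlr4, Vegfa and Zfp36l1). Folds of genes detected on only some of the non-lesion arrays (Pla2g2d, Il1b, Il1rn, Il6 and Rgs2 on 2 or fewer) are set against signal near background. With no background correction all 34 calls held, but the folds of these dim genes were smaller, that of Il1rn for example 1.61. The median log2 difference of all tested probes was -0.02. Among phospholipases, which free the fatty acid substrate, 3 of 7 rose and 1 fell (median -0.10). Pla2g7, the plasma enzyme that inactivates platelet-activating factor, rose 5.06-fold (limma adjusted p = 0.000184), from 7.21 to 8.72 on the non-lesion arrays to 9.21 to 11.4 on the lesion arrays with no overlap. Pla2g2d and Pla2g15 rose 1.61-fold and 1.36-fold, with limma adjusted p-values of 0.0274 and 0.0305. Pla2g2d was detected on 4 of 5 lesion and 1 of 8 other arrays; without Prkar1a+/- lesion replicate 2 its difference moved from 0.68 to 0.44, and the call ended without either double heterozygote lesion (adjusted p of at most 0.0926). The Pla2g15 call ended in 8 of 13 fits that left out 1 array (WT replicates 3 and 4, Prkaca+/- replicates 1 and 2, Prkar1a+/- lesion replicates 2 and 3 and either double heterozygote lesion), at 0.37 to 0.48 with an adjusted p of at most 0.102. Pla2g12a, a secreted phospholipase, fell 2.78-fold (limma adjusted p = 0.000719), with values of 10.3 to 12.1 in lesions and 11.82 to 13.01 elsewhere. Pla2g4a, the cytosolic phospholipase that supplies cyclooxygenases in many cells, was not among the tested probes.

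Of the other prostanoid synthases 3 of 7 rose and 0 fell (median 0.37). Hpgds, the haematopoietic prostaglandin D synthase of mast cells and other blood cells, rose 2.81-fold (limma adjusted p = 0.00102) from 5.64 to 6.90 up to 6.78 to 8.35, and its second probe rose by 1.87 on the log2 scale. Summed mast cell marker intensity, in which Cpa3, Mcpt4 and Cma1 were detected on every array, was 322 to 1249 on the non-lesion and 512 to 6222 on the lesion arrays; its part in the Hpgds rise was not tested. Akr1c18, an aldo-keto reductase, was detected in 4 of the 5 lesions and in 0 of the 8 control samples and rose at least 1.94-fold (limma adjusted p = 0.000449). Without double heterozygote lesion replicate 1 its fitted difference moved from 1.69 to 1.11. Cbr3, a carbonyl reductase, rose 1.30-fold, a call that ended without either double heterozygote lesion (0.37 and 0.38, adjusted p of 0.0540 and 0.0570). Tbxas1, the thromboxane synthase, did not pass (0.71, limma adjusted p = 0.0939).

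Breakdown and transport genes gave 2 rises and 1 fall among 4 (median 0.25). Hpgd, the dehydrogenase that starts the inactivation of prostaglandins, rose 2.26-fold (limma adjusted p = 0.000904), with 8.32 to 9.38 in non-lesion bone and 9.30 to 10.7 in lesions. Ptgr2, a reductase of the later step, fell by 0.59 on the log2 scale (limma adjusted p = 0.00262) with no overlap between the groups. Slco2a1, the prostaglandin uptake transporter, rose 1.37-fold (limma adjusted p = 0.0430), but the call ended in 9 of 13 fits that left out 1 array (WT replicates 2 to 4, Prkaca+/- replicates 1, 3 and 4, Prkar1a+/- lesion replicate 3 and either double heterozygote lesion), where it ran from 0.35 to 0.47 with an adjusted p of at most 0.120.

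All 4 genes measured on the list of other prostanoid receptors passed the test, 3 rises and 1 fall (median 0.49). Of all tested probes 51.2% were called in either direction. These include Ptgfrn, which is not itself a prostanoid receptor, while Ptgdr and Ptgdr2 were not measured. Ptgfr, the prostaglandin F receptor, read 5.51 to 6.10 on the lesion arrays, all of which detected it, and 4.65 to 5.14 on the non-lesion arrays, of which 0 did; it was at least 1.44-fold higher (limma adjusted p = 3.75e-05). Ptgir, the prostacyclin receptor, read 5.73 to 6.48 in lesions and 6.66 to 7.32 elsewhere and fell 1.74-fold (limma adjusted p = 0.000808), so it moved against Ptgis, the gene of the enzyme that makes its ligand. Tbxa2r, the thromboxane receptor, rose 1.43-fold by 1 probe (limma adjusted p = 0.00234), while its second probe stood at -0.17 (adjusted p = 0.352). Ptgfrn, which encodes a protein that acts on the prostaglandin F receptor, passed the test upward (0.46, limma adjusted p = 0.00397) and is counted among the 3. It was detected on 0 of 8 non-lesion arrays, and its lesion mean did not exceed the lowest signal well above background there, so no fold is given.

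In the lipoxygenase branch, which makes leukotrienes and related acids from the same substrate, 2 of 7 rose and 2 fell (median 0.29). Alox12, the platelet-type 12-lipoxygenase, fell 3.17-fold (limma adjusted p = 0.000240) and Ltc4s, the leukotriene C4 synthase, fell 1.77-fold (limma adjusted p = 0.00563). Ltb4r1, a leukotriene B4 receptor, rose 1.47-fold, missing the threshold without double heterozygote lesion replicate 2 (0.48, adjusted p = 0.0676). Lta4h, which makes leukotriene B4, rose 1.22-fold, a call that ended without WT replicate 3, Prkar1a+/- lesion replicate 2 or either double heterozygote lesion (0.24 to 0.31, adjusted p of at most 0.0985). Alox5 did not pass (-0.06, limma adjusted p = 0.840).

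The list of cytokines and receptors on the inducing side of Ptgs2, which also holds the antagonist Il1rn, gave 3 rises and 1 fall among 5 (median 0.74); without Il1rn it gave 2 rises and 1 fall among 4. Il1b rose 5.45-fold (limma adjusted p = 0.000159), or 2.66-fold with no background correction. It was detected on 5 of 5 lesion arrays, at 6.89 to 8.26. Of the 8 non-lesion arrays 2 detected it, and these 8 had a median of 4.90 and a highest value of 7.23. Il1rn, the natural antagonist of interleukin-1, rose 2.70-fold (limma adjusted p = 8.10e-06) with no overlap, detected on 5 of 5 lesion and 1 of 8 other arrays, and Tnfrsf1a, a receptor of tumour necrosis factor, 1.67-fold. Tlr4, the endotoxin receptor, fell 1.35-fold, a call that ended on leaving out the first replicate of either lesion group (-0.37 and -0.36, adjusted p of at most 0.111). The list of regulators of Ptgs2 message and of glucocorticoid genes gave 2 rises and 2 falls among 7 (median 0.26, which is the value of Elavl1). Elavl1 encodes HuR, which stabilises AU-rich messages rather than restraining them, and did not pass. Zfp36l1, which encodes a protein that destabilises AU-rich messages, rose 1.72-fold and Anxa1, a glucocorticoid-induced inhibitor of phospholipase activity, 1.63-fold. A dimmer Zfp36l1 probe, ILMN_2427108, did not pass (0.21, limma adjusted p = 0.374). Tsc22d3, a glucocorticoid target, fell 1.78-fold, and Nr3c1, the glucocorticoid receptor, 1.43-fold, the last ending without Prkar1a+/- lesion replicate 2 or either double heterozygote lesion (-0.54 to -0.48, adjusted p of at most 0.0856).

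Of 16 listed genes known to be induced by prostaglandin E2 through cyclic AMP in bone cells, 12 were measured. They gave 8 rises and 0 falls (median 1.23), beside 25.1% of all tested probes called higher and 26.2% lower. Nr4a1, Nr4a3, Areg and Bmp2 were not measured. The list was chosen with earlier results of these data known. Tnfsf11, the osteoclast-inducing ligand RANKL, rose 13.5-fold (limma adjusted p = 1.09e-05), from 5.34 to 7.56 on the non-lesion arrays to 8.41 to 10.6 on the lesion arrays. Il11 rose 5.52-fold and Il6 4.32-fold, both cytokines of the gp130 family, and Igf1, a bone growth factor, rose 4.00-fold. Lesion and non-lesion arrays did not overlap for these 4 genes, nor for Nr4a2, Rgs2 and Has2. The same held for 27.6% of all tested probes. All 5 lesion arrays detected Il6 and Rgs2, and 2 of the 8 others detected each. With no background correction the folds were 6.94 for Tnfsf11, 3.00 for Il11, 2.22 for Il6 and 3.48 for Igf1, and each call held. The other 4 rises were Fos, Has2, Nr4a2 and Rgs2, between 2.16-fold and 2.54-fold. Fos, an immediate early transcription factor, rested on double heterozygote lesion replicate 2, which read 13.2 against a lesion median of 10.7; without that array the difference was 0.71 (adjusted p = 0.235), and its call also ended without Prkaca+/- replicate 3 or Prkar1a+/- lesion replicate 2 or 3. Crem, Vegfa, Pde4b and Pde4d did not pass, although a dimmer Vegfa probe, ILMN_3045723, was lower (-0.40, limma adjusted p = 0.0339). Many other agents induce the same genes. As given above, all osteoblast and osteoclast markers tested and 2 of 4 macrophage markers were also higher in lesions. The count therefore does not measure prostaglandin signalling.

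With the skeletal muscle mean as a covariate, 18 of the 34 calls in the wider lists held and 16 ended. Those that held included Pla2g7 (1.36, limma adjusted p = 0.0112), Tsc22d3 (-1.10, limma adjusted p = 0.0219), Il6 (1.96) and Tnfsf11 (3.28). Those that ended included Hpgds (0.75, limma adjusted p = 0.0921). On the list of other prostanoid receptors Ptgfr held (0.92, limma adjusted p = 0.00267). Ptgir (-0.52, limma adjusted p = 0.0697), Tbxa2r (0.34, limma adjusted p = 0.134) and Ptgfrn (0.43, limma adjusted p = 0.0808) ended. With 75th percentile scaling 4 of the 34 calls ended, those of Pla2g15, Cbr3, Slco2a1 and Nr3c1 (adjusted p of 0.0868, 0.0605, 0.0543 and 0.0542). In Prkar1a+/- lesions against WT the prostaglandin E2 response list gave 7 rises among 12 (median 1.07), beside 20.0% of all tested probes called higher. In double heterozygote lesions against Prkaca+/- bone it also gave 7 (median 1.26), beside 14.3%.

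**Figure D4:**
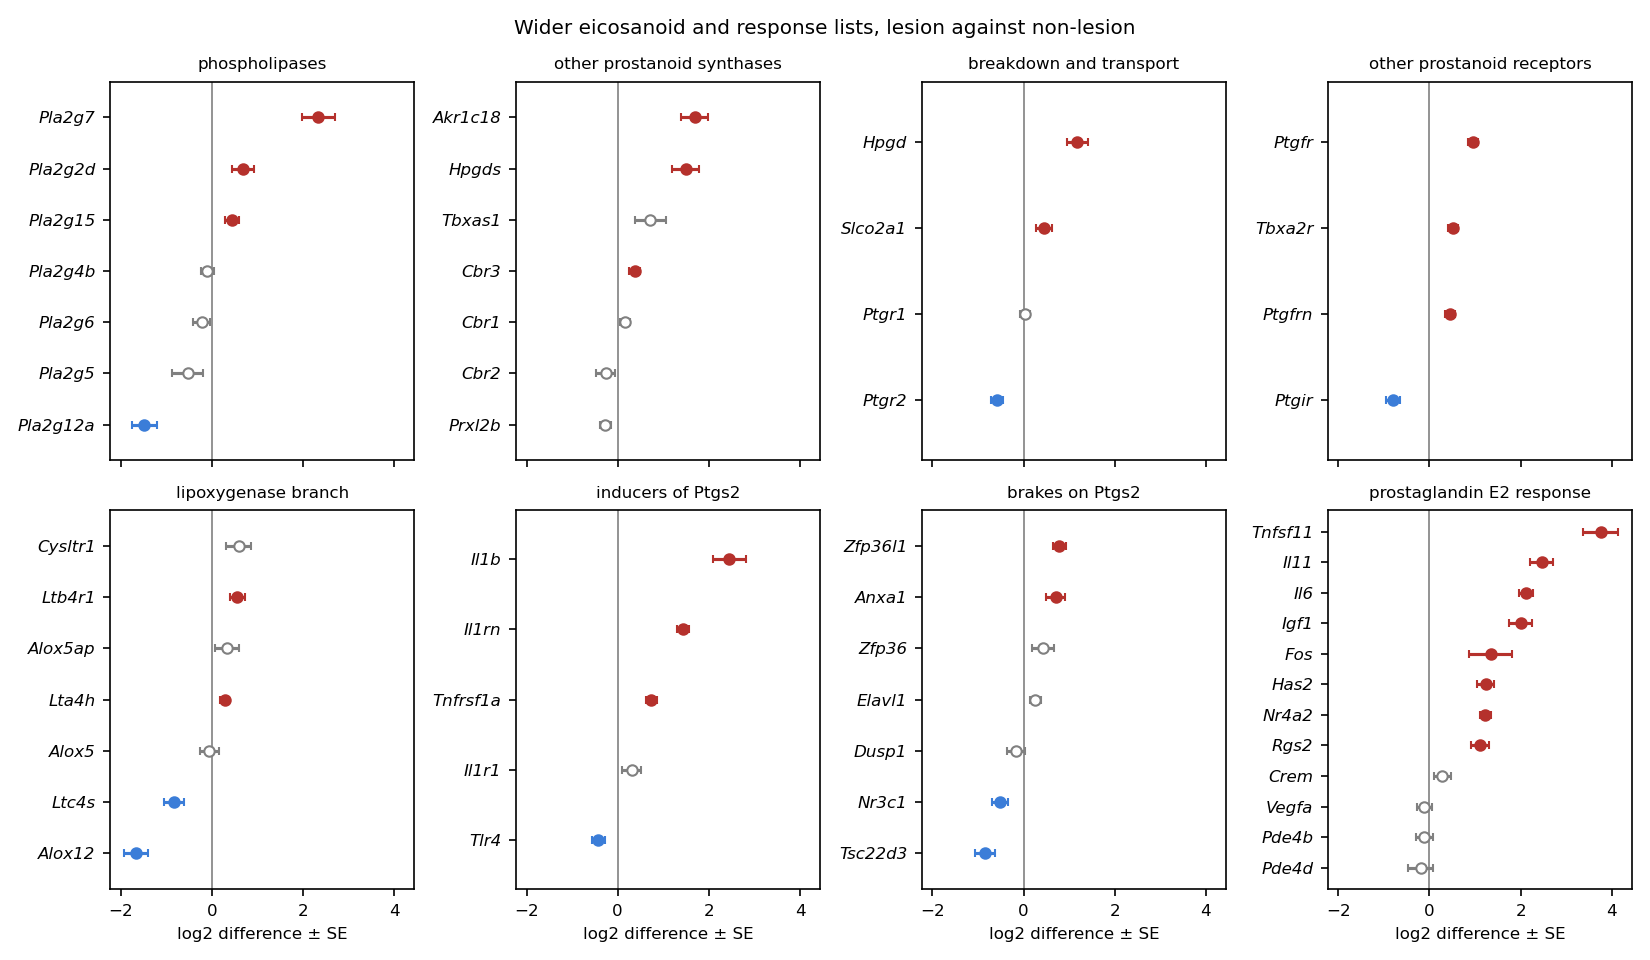
Log2 difference between lesion and non-lesion bone (horizontal axis, bars are SE) for the 53 measured genes of the wider lists, by list; red points were higher and blue points lower at an adjusted p under 0.05, and open points did not pass. The prostaglandin E2 response panel holds 8 red and 0 blue points, and the phospholipase, breakdown, receptor, lipoxygenase, inducer and brake panels hold both colours.

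For each member called in lesions, the named genes with the most similar pattern were found by the root mean square difference of log2 values relative to the WT mean over the 13 arrays. Closest to Ptges2 were Trak2 at 0.11, Slc25a11 at 0.11 and Uqcc1 at 0.12. Closest to Ptgis were Wasl at 0.13, S1pr3 at 0.14 and Rcl1 at 0.14, and closest to Ptger2 were Lsp1 at 0.13, Srebf2 at 0.19 and Gnb2 at 0.20. Ptger3 and Ptgs2 had less close neighbours: Dok1 stood at 0.27 from Ptger3, and Tctex1d2 at 0.30 from Ptgs2. All values share the same 13 arrays and their normalisation.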

How the data were processed

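The authors deposited a table of bead array intensities with a detection p-value for each probe, and a table of scores. Per the file headers, intensities and detection p-values come for every array; intensities with a detection p over 0.1 were empty. The deposited score was found to be a straight-line rescaling of the intensity within each array, with array medians from -0.180 to -0.160. Neither scanner nor image software is named in the labels. Gene names came from the platform annotation table, which names 23978 probes and leaves 1719 unnamed; 0 probes carry several symbols and 0 columns of other series were present.

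Empty intensities were filled, and background mean and SD estimated per array, from a line fitted to intensity against the normal quantile of the detection p, using probes with a detection p between 0.01 and 0.1. Intensities were then corrected with normexp (offset 16), quantile normalised and taken to log2. limma 3.58.1 in R 4.3.3 fitted the 4 groups over 16226 probes (9 residual degrees of freedom), with Benjamini-Hochberg adjustment over all of them and a threshold of 0.05. The code was tested on simulated data. On arrays, their number limits the precision.

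The members and lists were chosen with earlier results of these data known. All member probes are named, and from each wider list the 4 largest rises and falls past the threshold. Replicate numbers were not used to pair the arrays in the main fit. Alternatives were 75th percentile scaling, no background correction, an offset of 50, empty values at the lowest intensity printed, other filters on dim probes, the deposited scores, a skeletal muscle covariate, a replicate block and leaving out each array.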

Additional observations from a re-analysis of the deposited data

Results flagged for a closer look

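Ptger3 probe ILMN_2770866 stood out on WT replicate 2, at a log2 intensity of 5.98 where the other 3 WT arrays read 5.87 to 5.88; the gap was 0.877 of the group's range, above Dixon's 95% critical value for 4 arrays. The distance is small beside the spread in Prkaca+/- bone, where the same probe read 5.73 to 6.84. It was the only such value among 16 groups of 4 arrays examined, and chance flags about 1 in 20.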

How the results depend on the processing

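In lesion against non-lesion, the Ptgs2 rise and the Ptges2 fall kept their direction in every alternative run. The Ptgs2 call held wherever the probe was tested, and the Ptges2 call held except with the skeletal muscle covariate. That covariate moved the calls in lesion against non-lesion to 3297 probes and 1 member probe, in Prkar1a+/- lesion against WT to 1183 probes and 0 member probes, and in double heterozygote lesion against Prkaca+/- to 2509 probes and 1 member probe. Called member probes numbered 1 in Prkar1a+/- lesion against WT with 75th percentile scaling, and 1 in double heterozygote lesion against Prkaca+/- over probes detected on all arrays, by that filter's construction. With the replicate block the last comparison also gave 1 member probe, the Ptges2 call moving to an adjusted p of 0.0529; in lesion against non-lesion the block ended the Ptgis call (0.0571) and brought Ptges probe ILMN_2786442 past the threshold (0.0436), and in Prkar1a+/- lesion against WT it ended the Ptges2 call (0.0506). In the wider lists the block ended 4 of 34 calls (Fos 0.0816, Lta4h 0.0721, Cbr3 0.0687 and Slco2a1 0.108). The labels do not say whether same-numbered samples belong together. Correlations of same-numbered pairs ran from -0.24 to 0.36, with 6 of 16 over 0.1, and 3 of 13 arrays correlated best with their own number. This does not settle whether some numbers share a batch. Leaving out 1 array gave 2 to 5 called member probes in lesion against non-lesion, 1 to 3 in Prkar1a+/- lesion against WT (4004 to 6873 of all probes) and 0 to 3 in double heterozygote lesion against Prkaca+/- (1541 to 5095 of all probes). It gave 0 to 28 probes in double heterozygote against Prkar1a+/- lesion and 0 to 19 for the difference between the lesion effects. Signs changed for small differences. For Ptges3 the values were -0.11 (75th percentile) and -0.029 (muscle covariate) in double heterozygote lesions, 0.047 by deposited score, and on leaving out 1 array -0.079 to 0.062, -0.20 to 0.082 and -0.012 to 0.094 in the 3 lesion comparisons. In double heterozygote lesions Ptgis gave -0.091 (75th percentile) and -0.048 to 0.33 leaving out 1 array, and Ptger3 gave -0.0063 (no background correction), -0.29 (muscle covariate) and -0.18 to 0.19 leaving out 1 array. Ptges probe ILMN_2616028 gave -0.098 with the muscle covariate in Prkar1a+/- lesions and -0.010 by deposited score, and Ptger2 -0.0035 by deposited score, where arrays with empty intensities drop out. The cause of the other changes was not tested. Signal near background limits Ptgs2, Ptger2 and Ptges probe ILMN_2616028.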
